A study of Mus musculus with 8 samples.

Results

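Slc39a14, the host gene of the injury-responsive enhancer IREN1, and 9 other genes that move or store zinc were examined in SOX9 CUT&Tag profiles of the mouse spinal cord. The 10 genes were named from a list, out of 21728 protein-coding genes. The list was built around IREN1 when the contrast between injured and uninjured cords was already known in these libraries, so the values below are a description of its members and support no test. It holds the zinc importers Slc39a14, Slc39a8, Slc39a10, Slc39a6 and Slc39a1, the exporters Slc30a1 and Slc30a10, and the metallothioneins Mt1, Mt2 and Mt3. For each gene, coverage was read within 1 kb of the gene start (the promoter) and over the gene body with 20 kb on each side (the locus) on the mm10 build, and the Slc39a14 locus was scanned in tiles of 1 kb.

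Cells set their zinc by opposing carriers. ZIP proteins, the products of Slc39 genes, bring zinc into the cytosol, and ZnT proteins, the products of Slc30 genes, move it out of the cell or into vesicles. Metallothioneins are small cysteine-rich proteins that bind zinc and copper in the cytosol. When free zinc rises, the transcription factor MTF1 binds metal response elements (MREs) in the promoters of metallothionein genes and of Slc30a1. In the central nervous system some neurons store zinc in synaptic vesicles, and SOX9 is a transcription factor of astrocytes and ependymal cells.

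In CUT&Tag an antibody guides a transposase to a chromatin protein, here SOX9, and the DNA beside it is cut out, amplified and sequenced. Nuclei came from wild-type C57BL/6 mice of 8 to 12 weeks, either uninjured or 1 day after a contusion of the mid-thoracic cord (1 d.p.i.), and were sorted from 5-mm pieces of cord centred on the lesion or from the matching level. Each sample held 150000 nuclei, of which 20% received no SOX9 antibody and served as secondary-only controls, and libraries were amplified for 15 PCR cycles. Each condition has a male sample (M) and a female sample (F), each split into 1 SOX9 library and 1 control library, which gives 8 libraries in 4 groups of 2. The paper pools 2 to 4 animals a condition in its sequencing work, with the sexes in equal number, and the labels give no number for a library, so the p-values measure only the spread between these libraries.

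Depth differed between libraries. On the autosomes and chromosome X, the SOX9 libraries held 1869806 fragments in M and 7209462 in F without injury, and 2513522 in M and 2381412 in F at 1 d.p.i. The controls held 22707 in M and 46637 in F without injury, and 52684 in M and 10892 in F after it. Because of this depth, 1 fragment in the shallowest control stands for 91.8 per 1000000, and the controls are given below as fragment counts. Over the 10 loci the controls had 10, 21, 18 and 7 fragments. Of the fragments that stood alone, 10 of 10, 15 of 17, 16 of 16 and 7 of 7 coincided in start and in end with a fragment sequenced in a SOX9 library, and 0 did when positions were shifted by 50 bp. Among the SOX9 libraries themselves this share was between 1.56% and 3.82%. Whether such fragments are reads of the SOX9 libraries assigned to a control was not tested, and the control counts below are not read as a background. Chromosome Y held 1.11% and 0.630% of the coverage in the M libraries and 0.0983% and 0.142% in the F libraries made with the SOX9 antibody, as labelled. In the controls of uninjured cords it held 0.202% (M) and 0.218% (F), which does not separate the sexes, and in those at 1 d.p.i. 0.267% (M) and 0.129% (F).

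IREN1 is a cloned element of 913 bp at chr14:70329465-70330377, and both primers that the study lists for it match the ends of this interval. It lies in intron 2 of the longest Slc39a14 transcripts, 21048 bp from the gene start, and 1141 bp from the start of a short coding transcript of the gene. Coverage of IREN1, given as times the library mean, was 2.17 in M and 4.20 in F without injury, and 13.4 in M and 9.88 in F at 1 d.p.i. Both libraries at 1 d.p.i. lay above both uninjured libraries, with means of 3.19 ± 1.44 and 11.6 ± 2.46 (SD, n = 2) and a ratio of 3.64. An exact two-sided permutation test of 2 libraries against 2 cannot go below p = 0.33, and none was run because IREN1 was singled out from this contrast.

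The counts behind these levels were small. Without injury, 1 fragment of the M library and 14 of the F library overlapped IREN1, and at 1 d.p.i. 15 and 12 did. Per 1000000 fragments of the library this is 0.535 (95% exact Clopper-Pearson interval 0.0135 to 2.98) and 1.94 (1.06 to 3.26) in uninjured cords. At 1 d.p.i. it is 5.97 (3.34 to 9.84) in M and 5.04 (2.60 to 8.80) in F. The intervals did not overlap between the M libraries and overlapped between the F libraries, and they cover counting error only. The controls had 0, 0, 1 and 0 fragments, where the upper limits of the same intervals at 0 fragments are 162, 79.1 and 339 per 1000000. The 1 control fragment, from the M sample at 1 d.p.i., coincided in start and in end with 1 in the SOX9 F library at 1 d.p.i. In bulk nuclei, fewer cells with SOX9 at a site and less signal per cell cannot be told apart.

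Within IREN1 the difference in coverage was largest toward the end nearer the gene start in both sexes. In the stretch chr14:70329465-70329768 coverage was 4.54 in M and 3.61 in F without injury, and 5.34 in M and 7.54 in F at 1 d.p.i., a ratio of 1.58. In the stretch chr14:70330073-70330377 it was 0 in M and 5.36 in F without injury, and 19.4 in M and 13.3 in F at 1 d.p.i., a ratio of 6.11. The middle stretch had a ratio of 4.28. The increase along these 3 ratios rests mostly on the M libraries, with 1 fragment in uninjured M, since within F the ratios were 2.09, 2.41 and 2.48. The highest coverage stood at chr14:70330052-70330081 in the M library at 1 d.p.i. and at chr14:70330360-70330377 in the F library, where it ran up to the edge of the cloned interval. The M library at 1 d.p.i. reached its highest value in 2 separate stretches, of which this is the first, and the uninjured F library in 4, spread over both ends of the element.

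**Figure D1:**
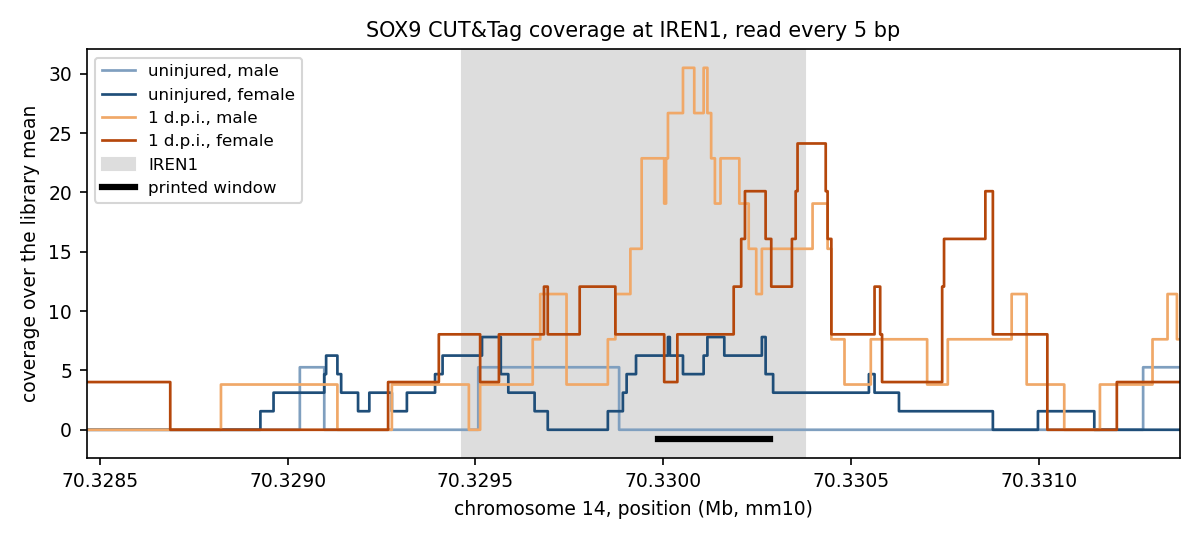
Coverage at IREN1 and 1 kb on each side, read every 5 bp, as times the library mean (vertical axis) against the position on chromosome 14 in Mb (horizontal axis), with a line for each SOX9 library, IREN1 in grey and the 300-bp window whose sequence is printed as a black bar. The line of the uninjured male library is a run of 1 fragment at a time, and the lines at 1 d.p.i. are highest in the right part of the element.

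Scanned in 1-kb tiles, the Slc39a14 locus (chr14:70283469-70371425) held a higher intronic site outside IREN1. Of its 89 tiles, 34 had a mean of at least 3 times the library mean over the SOX9 libraries, the filter for tiles. At 18 of the 34 both libraries at 1 d.p.i. lay above both uninjured libraries and at 0 below, where 15.4% and 16.5% of 150653 tiles in the genome did so. Nothing is read from this count, since the gene was chosen from the same contrast. The highest tile, chr14:70336001-70337000, lies in an intron 14425 bp from the gene start. Its coverage was 6.21 in M and 9.66 in F without injury, and 51.3 in M and 44.3 in F at 1 d.p.i., a ratio of 6.03. Both libraries at 1 d.p.i. stood far above both uninjured ones, and the mean of the 4 libraries put the tile at percentile 99.9 of all tiles in the genome.

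More fragments lay behind this tile than behind IREN1. It was overlapped by 5 fragments in M and 31 in F without injury, and by 63 in M and 57 in F at 1 d.p.i. Per 1000000 this is 2.67 (95% exact interval 0.868 to 6.24) and 4.30 (2.92 to 6.10) in uninjured cords against 25.1 (19.3 to 32.1) and 23.9 (18.1 to 31) at 1 d.p.i. Each interval at 1 d.p.i. lies above both uninjured intervals. These intervals too cover counting error only, and the mean that named this tile includes its values at 1 d.p.i. The controls had 0, 1, 0 and 0 fragments here, and the 1 fragment matched a fragment of the SOX9 F library at 1 d.p.i. in start and end. The M and F libraries at 1 d.p.i. started fragments at 49 and 43 positions of the tile, of which 18 were shared. When the positions of 1 library were shifted by 10 to 30 bp, a mean of 2.5 and at most 7 were shared. At IREN1 the same libraries shared 0 of 13 and 10 start positions. Sharing also crossed the conditions. The uninjured F library shared 3 start positions with the M library at 1 d.p.i. at IREN1. In the highest tile its 23 start positions included 11 shared with M and 10 shared with F at 1 d.p.i.

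The tiles that overlap IREN1 were lower. The tile chr14:70330001-70331000, which holds its right part, had coverage of 0 in M and 3.26 in F without injury, and 12.9 in M and 11.1 in F at 1 d.p.i. The p-values of these tiles are a description, since the locus was chosen from the same contrast. In limma over all tiles it was the 1 tile of the 34 past an adjusted p of 0.05 (log2 change 3.18, adjusted p = 0.0260), as were 0.0398% of tiles in the genome in this direction and 0.00664% in the other. The tile passed the filter through its values at 1 d.p.i., and the uninjured M library held 0 fragments in it, so the fitted change depends on the pseudocount of 0.5. The call was lost in 10 of 11 other settings, among them leaving out the uninjured M library (adjusted p = 1.00), the M library at 1 d.p.i. (1.00) or the F library at 1 d.p.i. (1.00), and adjusted p ranged from 0.000439 to 1.00. The highest tile had a log2 change of 2.54 and an adjusted p of 0.0595, with a range of 7.55e-05 to 1.00 over the other settings, and was under 0.05 without the uninjured M library (0.0355), without the uninjured F library (7.55e-05) and with a pseudocount of 0.1 (0.0319). The other tile on IREN1, chr14:70329001-70330000, had a ratio of 1.93. The highest tiles of the locus after chr14:70336001-70337000 hold gene starts, and the groups overlapped at both. The tile of the Slc39a14 start, chr14:70351001-70352000, had 6.66 in M and 16.3 in F without injury, and 19.9 in M and 12.7 in F at 1 d.p.i. The tile chr14:70289001-70290000, with the start of the neighbouring gene Ppp3cc, had 10.3 in M and 18.7 in F without injury, and 11.7 in M and 4.13 in F at 1 d.p.i.

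A run of 8 tiles, chr14:70329001-70337000, joined IREN1 to the highest tile. It makes up 9.10% of the locus and held 54.7% of the difference in coverage between the conditions, of which the highest tile alone held 24.8% and the tiles on IREN1 8.07%. This run was chosen after its values were seen. Coverage of the rest of the locus was 2.06 in M and 2.0 in F without injury, and 3.08 in M and 2.81 in F at 1 d.p.i., a ratio of 1.45. Starts of 2 shorter coding transcripts lie in the run. Within 1 kb of the start at position 70331518 coverage was 0.811 in M and 1.47 in F without injury, and 8.35 in M and 8.05 in F at 1 d.p.i., a ratio of 7.19. Within 1 kb of the start at position 70334198 the ratio was 3.16. Next among the tiles with the largest differences was chr14:70334001-70335000, which overlaps an exon, with 1.34 in M and 5.23 in F without injury, and 11 in M and 15.0 in F at 1 d.p.i. Among tiles where the groups do not overlap, those with the largest differences in the other direction, chr14:70283001-70284000, chr14:70361001-70362000 and chr14:70300001-70301000, lie in the flanks, are under the filter and hold at most 6 fragments in a library.

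**Figure D2:**
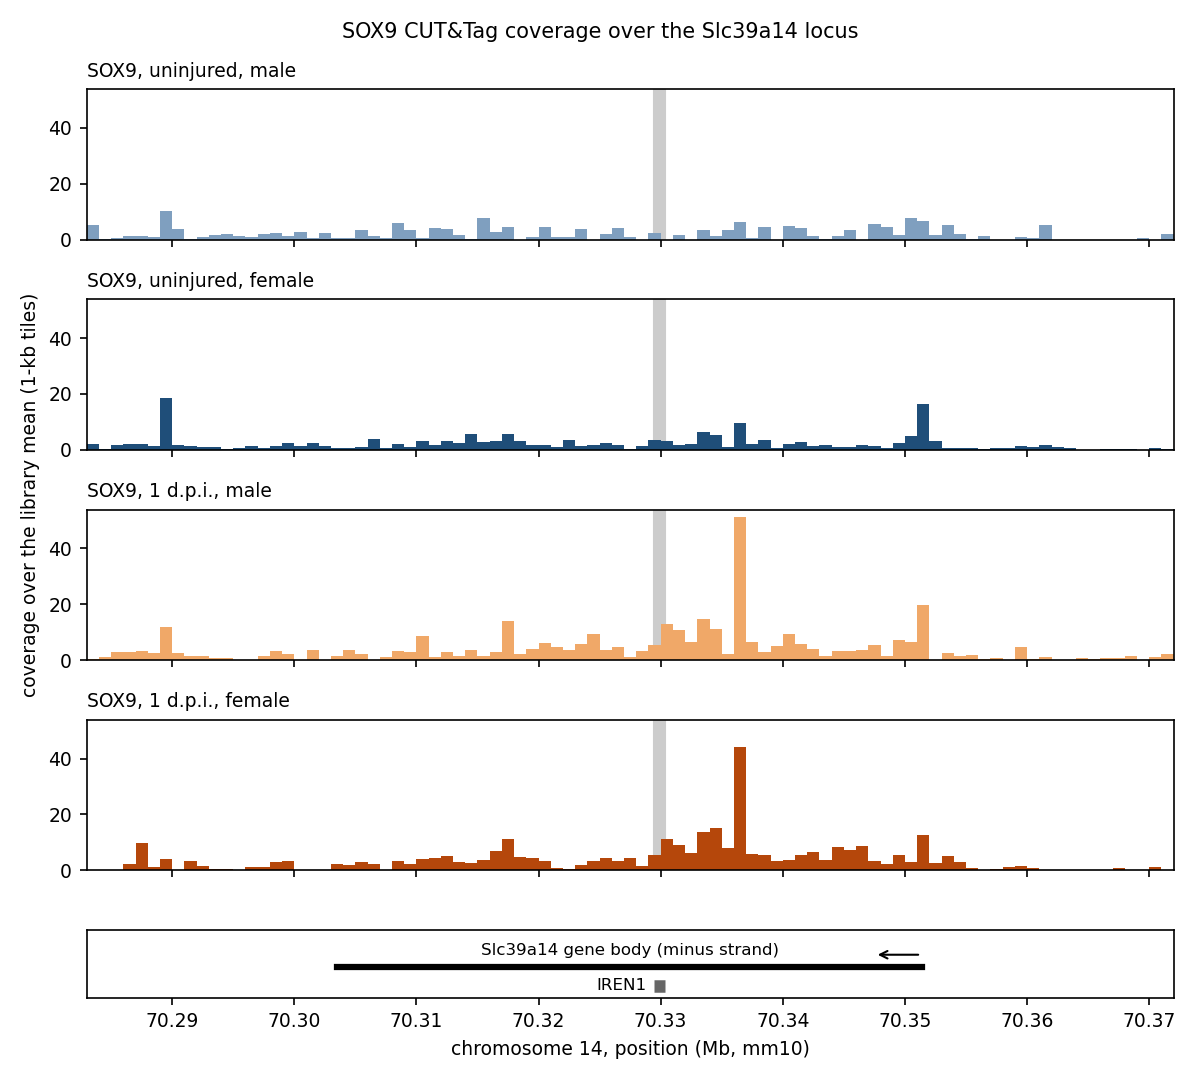
Coverage of 1-kb tiles over the Slc39a14 locus as times the library mean (vertical axes, 1 panel per SOX9 library on a shared scale) against the position on chromosome 14 in Mb, with the gene body as a black line, an arrow for the direction of transcription and IREN1 in grey. The tile at 70336001 reaches 51.3 and 44.3 in the libraries at 1 d.p.i. and 6.21 and 9.66 in the uninjured libraries.

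Over the whole locus, Slc39a14 coverage was 2.08 in M and 2.19 in F without injury, and 4.10 in M and 3.84 in F at 1 d.p.i. Both libraries at 1 d.p.i. lay above both uninjured libraries, with means of 2.137 ± 0.0809 and 3.97 ± 0.187 (SD, n = 2) and a ratio of 1.86. Among all coding genes the locus stood at percentile 66.7 without injury and 89.1 at 1 d.p.i. The gene body alone had 2.48 in M and 2.63 in F without injury, and 6.07 in M and 5.89 in F at 1 d.p.i. In the flanks of 20 kb the groups overlapped, with ratios of 1.12 before the start and 0.874 past the end of the gene. In limma its log2 change was 0.76 with an adjusted p of 0.419 (unadjusted p = 0.00112) over 21676 loci. The adjusted p ranged from 0.0131 to 1.00 over the other settings and was under 0.05 without the uninjured M library (0.0172) and without the uninjured F library (0.0131).

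At the Slc39a14 promoter the groups were mixed. Its coverage was 6.05 in M and 11.2 in F without injury, and 12.4 in M and 7.75 in F at 1 d.p.i., so the groups overlapped. The ratio of means was 1.17, and it was 0.905 without the uninjured M library and 0.901 without the M library at 1 d.p.i. The controls had 1, 0, 1 and 1 fragments at this promoter. Slc39a14 encodes ZIP14, a carrier of zinc, manganese and iron that is known for its induction in the liver during inflammation.

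At the promoters of the 10 genes the groups mostly overlapped. The Slc39a10 start in the annotation is nearly uncovered, and the other 9 promoters had a mean of at least 1 time the library mean, the filter for promoters. Of the 9, both libraries at 1 d.p.i. lay above both uninjured libraries at 2 (Mt1 and Mt2) and below at 1 (Slc30a10), and the groups overlapped at 6. Among 15944 promoters past this filter, 7.39% lay above and 14.9% below, and nothing is read from the members' count. With scaling by a trimmed mean of log ratios in place of the library mean, Mt1 and Mt2 overlapped too. In limma 0 of the 9 passed an adjusted p of 0.05 and 0 an unadjusted p of 0.05, which 1.71% of all promoters passed, while 0.00627% of all promoters passed the adjusted p as higher at 1 d.p.i. and 0% as lower. The median log2 change over the 9 was -0.10, beside -0.07 over all promoters tested.

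At the 10 loci, all of which passed the filter of 0.1, both libraries at 1 d.p.i. lay above both uninjured libraries at 4 (Slc39a14, Mt1, Mt2 and Mt3) and below at 3 (Slc39a1, Slc30a1 and Slc30a10). Among all loci 12.5% lay above and 12.5% below, and nothing is read from the members' count. The loci of Mt1, Mt2 and Mt3 overlap each other and are not independent. In limma 0 of the 10 passed the adjusted p and 1, Slc39a14, an unadjusted p of 0.05, as did 3.17% of all loci. Under the same unadjusted threshold Slc39a14 was no longer called with trimmed-mean scaling, with all 8 libraries in the fit or without the M library at 1 d.p.i. Of all loci 0.083% passed the adjusted p as higher at 1 d.p.i. and 0% as lower. By mean coverage in uninjured cords the loci ran from Slc39a1 (6.37) through Mt2 (4.38), Mt1 (3.88), Mt3 (2.75), Slc39a14 (2.137), Slc30a1 (1.96), Slc39a10 (1.64), Slc39a6 (1.5) and Slc30a10 (1.34) to Slc39a8 (0.462). At 1 d.p.i. Mt2 (6.18) and Mt1 (5.93) came ahead of Slc39a1 (5.15) and Slc39a14 (3.97) ahead of Mt3 (3.36). Neighbours in this order such as Slc39a10 and Slc39a6, or Mt2 and Mt1 at 1 d.p.i., did not differ beyond the spread of their libraries.

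**Figure D3:**
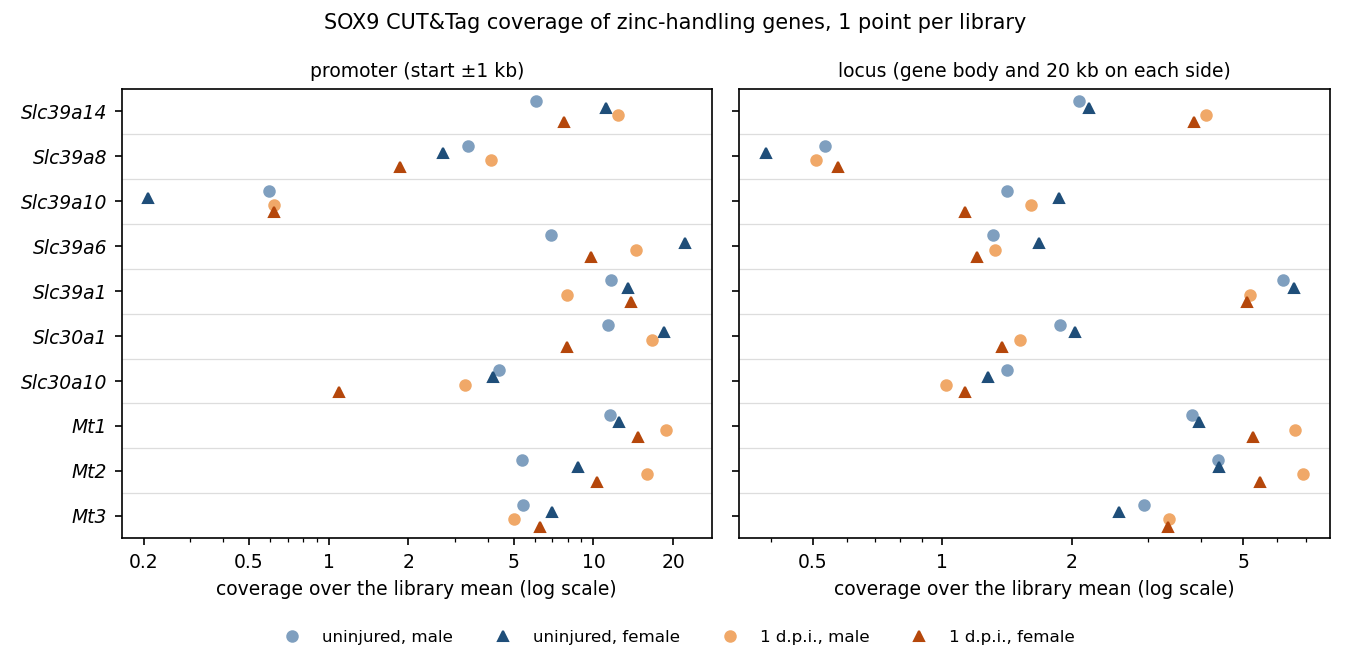
Coverage of the promoters (left) and loci (right) of the 10 genes as times the library mean on log axes, with 1 point per SOX9 library, circles for male and triangles for female libraries, blue for uninjured cords and orange for 1 d.p.i. At the Slc39a14 locus the orange points (4.10 and 3.84) lie above the blue ones (2.08 and 2.19), and at its promoter they are mixed.

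Among the other importers, Slc39a8 (ZIP8, a carrier of zinc, manganese and cadmium) had the lowest locus of the list. Its promoter coverage was 3.37 in M and 2.71 in F without injury, and 4.10 in M and 1.85 in F at 1 d.p.i., and its locus had 0.534 in M and 0.390 in F without injury, and 0.510 in M and 0.572 in F after it. The groups overlapped at both, while within 500 bp of the start both libraries at 1 d.p.i. lay below, with a ratio of 0.443 against 0.979 for the promoter. Over the gene body alone (ratio 1.22), and over the locus with trimmed-mean scaling, both lay above. Of its 104 tiles 0 passed the filter, and the highest, at the gene start, lay between 1.86 and 3.92.

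Slc39a10 and Slc39a6 encode related importers, ZIP10 and ZIP6, that can join in a complex. At Slc39a10 the annotated gene start had coverage between 0.209 and 0.621, whereas the highest tile of all 10 loci, chr1:46853001-46854000, holds another start of the gene, given by RefSeq at position 46853618. That tile had coverage of 64.7 in M and 150.2 in F without injury, and 108 in M and 47.2 in F at 1 d.p.i. Within 1 kb of the RefSeq start the ratio was 0.725, against 1.54 at the nearly uncovered annotated start. The highest value is in the F library of the uninjured group and the lowest in the F library at 1 d.p.i., with the M libraries between them. The Slc39a6 promoter, on chromosome 18, was also highest in the uninjured F library, with 6.93 in M and 22.2 in F without injury, and 14.5 in M and 9.79 in F at 1 d.p.i. At the loci the groups overlapped as well. Slc39a10 had 1.41 in M and 1.87 in F without injury, and 1.61 in M and 1.13 in F at 1 d.p.i. Slc39a6 had 1.32 in M and 1.68 in F without injury, and 1.32 in M and 1.21 in F at 1 d.p.i., and its highest tile, at the gene start, ran from 8.37 to 30.7 with overlap.

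Slc39a1, the gene of the widely expressed importer ZIP1, had the highest locus in uninjured cords. The locus had coverage of 6.19 in M and 6.55 in F without injury, and 5.20 in M and 5.11 in F at 1 d.p.i., a ratio of 0.809. Both libraries at 1 d.p.i. lay below both uninjured ones, while the groups overlapped at the promoter, with 11.7 in M and 13.5 in F without injury, and 7.96 in M and 13.9 in F after it. With 50 kb on each side of the gene the groups overlapped too, with a ratio of 0.915. Its highest tile, chr3:90254001-90255000, lies past the end of the gene and holds the start of another gene, Crtc2. That tile had coverage of 9.0 in M and 32.0 in F without injury, and 29.0 in M and 16.4 in F at 1 d.p.i.

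Both exporters had lower loci at 1 d.p.i., and neither passed the adjusted p. Slc30a1 encodes ZnT1, the exporter of the plasma membrane whose gene is a classical MTF1 target. Its locus had coverage of 1.88 in M and 2.03 in F without injury, and 1.52 in M and 1.37 in F at 1 d.p.i., a ratio of 0.739, which was 0.95 over the gene body alone and 0.975 with 50 kb on each side. Its promoter had 11.3 in M and 18.4 in F without injury, and 16.7 in M and 7.97 in F at 1 d.p.i., and overlapped, as did its highest tile, at the gene start, between 11.1 and 30.2. Slc30a10 encodes ZnT10, which exports manganese. Its promoter had 4.4 in M and 4.18 in F without injury, and 3.27 in M and 1.09 in F at 1 d.p.i., a ratio of 0.508. Both libraries at 1 d.p.i. lay below, the F library by the most, and at the locus both lay below as well. The locus had 1.41 in M and 1.27 in F without injury, and 1.02 in M and 1.13 in F after it. The promoter groups overlapped when counted in fragments (5, 22, 7 and 2), and the locus groups overlapped over the gene body alone and with 50 kb on each side. The highest tile of the locus, chr1:185482001-185483000, lies past the end of the gene with 7.60 in M and 4.51 in F without injury, and 0.961 in M and 4.29 in F at 1 d.p.i.

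The metallothionein genes lie side by side on chromosome 8, Mt3, Mt2 and Mt1 in this order. Mt1 and Mt2, the broadly expressed forms that zinc and stress induce, had higher coverage at 1 d.p.i. at promoter and locus in both libraries, although with trimmed-mean scaling the promoter groups overlapped. The Mt1 promoter had coverage of 11.6 in M and 12.5 in F without injury, and 18.8 in M and 14.8 in F at 1 d.p.i., a ratio of 1.39. The Mt2 promoter had 5.36 in M and 8.77 in F without injury, and 16.0 in M and 10.3 in F at 1 d.p.i., a ratio of 1.86. At both, the M library at 1 d.p.i. was the highest, and the F library exceeded the uninjured F library by less. Mt3, the form typical of the brain and spinal cord, had a promoter at 5.42 in M and 6.99 in F without injury, and 5.03 in M and 6.29 in F at 1 d.p.i., which overlapped. Over their loci, Mt1 had 3.81 in M and 3.95 in F without injury, and 6.60 in M and 5.26 in F at 1 d.p.i. Mt2 had 4.37 in M and 4.39 in F without injury, and 6.89 in M and 5.47 in F at 1 d.p.i. Mt3 had 2.94 in M and 2.57 in F without injury, and 3.36 in M and 3.35 in F at 1 d.p.i., a ratio of 1.22 that was 0.676 over the gene body alone. The highest tile of the Mt1 and Mt2 loci, chr8:94179001-94180000 at the Mt1 start, had 10.6 in M and 14.7 in F without injury, and 23.4 in M and 18.3 in F at 1 d.p.i. The highest tile of the Mt3 locus, chr8:94172001-94173000 at the Mt2 start, had 9.43 in M and 10.9 in F without injury, and 21.6 in M and 10.8 in F at 1 d.p.i., so in tiles the groups separated at the Mt1 start and overlapped at the Mt2 start.

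Between Mt2 and Mt1, the tile chr8:94174001-94175000 had the largest difference of the metallothionein loci, and was chosen after its values were seen. Its coverage was 1.38 in M and 2.09 in F without injury, and 16.5 in M and 11.2 in F at 1 d.p.i. Both libraries at 1 d.p.i. lay above, on 17 (M) and 11 (F) fragments against 1 (M) and 7 (F), with 0 in the controls, and the 17 and 10 start positions of the libraries at 1 d.p.i. had 0 in common. Of the bases of its best-covered 300-bp window, 97.0% are in lower case in the assembly, the mark of repeated sequence, against 6.33% in such a window of IREN1 and 7.33% in that of the highest Slc39a14 tile.

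Beyond the 10 genes, a list of 19 further genes of zinc handling (9 ZIP genes, 8 ZnT genes, Mt4 and Mtf1) showed no member past the adjusted p in limma. Of their promoters 17 passed the filter, with 2 above and 4 below, where 7.39% and 14.9% of all promoters lay so, and 0 past an unadjusted p of 0.05, as were 1.71% of all promoters. Of their loci 19 passed the filter, with 1 above and 3 below, where 12.5% of all loci lay above and 12.5% below, and 0 past an unadjusted p of 0.05, as were 3.17% of all loci. The median log2 change was -0.22 at promoters and -0.0017 at loci, beside -0.07 and -0.016 over all those tested. Slc39a7, an importer of the endoplasmic reticulum membrane, had the highest promoter of these genes with coverage of 26.3 in M and 33.1 in F without injury, and 26.1 in M and 24.7 in F at 1 d.p.i. Slc39a13 came next with 16.1 in M and 28.7 in F without injury, and 19.2 in M and 13.5 in F after it. The largest differences in the fit were at Mt4 (log2 change 1.15) and Slc30a6 (log2 change -0.75), neither past an unadjusted p of 0.05. Mtf1, the gene of the metal-sensing factor itself, had a promoter at 8.88 in M and 19.6 in F without injury, and 12.8 in M and 6.07 in F at 1 d.p.i., and overlapped.

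The promoters of the genes around Slc39a14 did not separate the groups. Within 100 kb of its start lie the starts of 3 coding genes, Ppp3cc (a calcineurin catalytic subunit), Piwil2 (a Piwi protein) and Polr3d (a subunit of RNA polymerase III), and the groups overlapped at the promoter of each. Ppp3cc had coverage of 7.04 in M and 10.5 in F without injury, and 7.58 in M and 2.64 in F at 1 d.p.i. By Euclidean distance of log2 locus coverage over the 4 SOX9 libraries, the genes closest to Slc39a14 were Trib1 (0.220), Adm (0.265) and Ogdhl (0.287). Trib1, a pseudokinase gene, had locus coverage of 2.18 in M and 2.54 in F without injury, and 4.22 in M and 3.49 in F at 1 d.p.i. Adm, the gene of the peptide adrenomedullin, had 1.81 in M and 2.34 in F without injury, and 3.89 in M and 3.31 in F after it.

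Promoter coverage of marker genes was read as a check of where the SOX9 signal lies. By the mean of the SOX9 libraries, the 5 astrocyte promoters stood between percentile 19.8 (Aqp4) and 60.7 (Sox9) of all coding genes. Sox10 stood at 96.9, Olig1 at 95.4, Olig2 at 88.1 and Mbp at 59.0. Among neuronal genes, Syt1 stood at 81.25, Snap25 at 65.6 and Rbfox3 at 46.5. Promoter signal was thus not highest at the astrocyte genes. Summed over 5 astrocyte genes (Sox9, Slc1a3, Aqp4, Gfap and Aldh1l1) it was 10.8 in M and 11.5 in F without injury, and 17.0 in M and 10.0 in F at 1 d.p.i. Sox9 was the most covered of them with 4.11 in M and 3.47 in F without injury, and 8.76 in M and 4.30 in F after it, and Aqp4 had 0 in the uninjured M library and the F library at 1 d.p.i. The sum overlapped, while both libraries at 1 d.p.i. lay above at Sox9 and Gfap (2.36 to 3.48) and below at Slc1a3 (3.28 to 1.91) and Aldh1l1 (1.29 to 0.781). Genes of the oligodendrocyte lineage were taken singly. Sox10 had 28.4 in M and 31.3 in F without injury, and 23.1 in M and 12 in F at 1 d.p.i., below in both libraries. The groups overlapped at Olig1 (means of 18.9 and 21), Olig2 (14.1 and 11.8) and Mbp (4.81 and 4.96). The sum over neurons (Rbfox3, Snap25 and Syt1, the last the most covered) was 16.3 in M and 27.0 in F without injury, and 20.2 in M and 12 in F after it, with both libraries at 1 d.p.i. below at Snap25 (7.70 to 4.43), while at Rbfox3 (3.41 to 2.56) the F library lay below and the M libraries were level at 3.13. That over endothelium (Cldn5 and Pecam1) was 2.27 in M and 4.54 in F without injury, and 1.76 in M and 5.18 in F after it, with Pecam1 at 0 in the uninjured M library. That over skeletal muscle (Acta1 and Ckm) was 4.08 in M and 7.31 in F without injury, and 5.35 in M and 3.27 in F after it. In each of the summed lists but that of microglia and macrophages the groups overlapped. For microglia and macrophages (Aif1, Cx3cr1 and P2ry12) the sum was 6.06 in M and 5.18 in F without injury. It was 3.56 in M and 5.05 in F at 1 d.p.i., lower in both libraries at 1 d.p.i. Aif1 and P2ry12 also lay below in both, and Cx3cr1 lay above in both (1.63 to 2.46). The part of cell composition in the values of Slc39a14 was not tested.

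Sequence was read at IREN1, at the highest tile of the Slc39a14 locus and at the promoters where MTF1 is known to act. Motifs were searched on both strands as AP-1 (TGACTCA), SOX (ACAATG and ACAAAG), an NFI motif (TTGGCA) and MRE (TGCACNC and TGCGCNC, which can overlap on opposite strands). In IREN1 there were 0 matches to any of them, while 78.7% of 913-bp windows on chromosome 14 hold a SOX match, 38.0% an NFI motif, 31.6% an MRE and 13.1% an AP-1 match. In the highest tile of Slc39a14 there were 2 SOX, 2 NFI and 2 MRE matches and 0 AP-1 matches, where 81.5%, 40.8%, 33.9% and 14.3% of 1000-bp windows hold at least 1. A match is a description of letters and not a site of binding. Only these exact letters were searched, so 0 matches do not show that IREN1 lacks sites of these factors. For its candidate enhancers as a group, the paper states that its model predicted AP-1 sites together with sites of astrocyte factors such as SOX9 and NFI. The 300-bp windows of highest coverage at 1 d.p.i. follow on the plus strand of GRCm38, from chr14:70329986-70330285 in IREN1 and chr14:70336427-70336726 in the highest tile, with motif matches in capitals. The window in the highest tile had coverage of 4.60 in M and 14.8 in F without injury, and 78.6 in M and 81.5 in F at 1 d.p.i.
IREN1 window: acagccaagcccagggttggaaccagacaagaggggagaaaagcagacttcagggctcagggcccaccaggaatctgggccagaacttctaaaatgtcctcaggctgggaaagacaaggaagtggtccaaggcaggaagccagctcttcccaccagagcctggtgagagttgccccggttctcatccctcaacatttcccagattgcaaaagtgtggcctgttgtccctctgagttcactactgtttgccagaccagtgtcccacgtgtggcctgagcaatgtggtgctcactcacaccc
Highest Slc39a14 tile window: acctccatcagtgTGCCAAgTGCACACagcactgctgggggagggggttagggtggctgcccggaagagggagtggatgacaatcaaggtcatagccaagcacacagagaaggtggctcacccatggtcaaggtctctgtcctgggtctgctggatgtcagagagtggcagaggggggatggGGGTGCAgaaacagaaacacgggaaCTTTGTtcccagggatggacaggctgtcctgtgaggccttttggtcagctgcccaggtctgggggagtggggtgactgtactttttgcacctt

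For the promoters, RefSeq sequences of 250 bases before to 50 after the gene start (GRCm38.p6) were matched by symbol for 8 of the 10 genes, without an entry for Slc39a14 and Slc39a6. An MRE match stands in 25.7% of 32851 such promoters, at least 3 in 1.97% and at least 4 in 0.517%. Mt2 held 4 matches, Mt1 3, Slc30a10 3 in 2 separate places, Slc30a1 2 and Mt3 1, and Slc39a8 had 1 at the second of its starts. Slc39a1 and Slc39a10 had 0. The promoters of the MTF1 targets Mt1 (chr8:94178839-94179138), Mt2 (chr8:94172368-94172667) and Slc30a1 (chr1:191906531-191906830), and that of Mt3 (chr8:94152357-94152656) for comparison, all on the plus strand, are shown with MRE matches in capitals.
Mt1 promoter: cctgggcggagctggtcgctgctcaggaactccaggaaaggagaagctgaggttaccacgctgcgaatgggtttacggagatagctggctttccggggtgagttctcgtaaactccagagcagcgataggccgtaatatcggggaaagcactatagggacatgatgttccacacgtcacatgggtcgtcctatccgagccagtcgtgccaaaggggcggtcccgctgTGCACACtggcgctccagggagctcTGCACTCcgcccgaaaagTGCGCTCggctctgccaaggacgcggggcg
Mt2 promoter: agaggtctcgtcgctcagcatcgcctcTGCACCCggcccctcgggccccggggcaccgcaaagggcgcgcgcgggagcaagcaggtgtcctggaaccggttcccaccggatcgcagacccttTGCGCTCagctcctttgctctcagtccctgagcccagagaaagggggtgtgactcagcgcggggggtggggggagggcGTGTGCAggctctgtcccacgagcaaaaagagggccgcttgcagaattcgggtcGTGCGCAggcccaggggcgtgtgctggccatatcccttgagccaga
Slc30a1 promoter: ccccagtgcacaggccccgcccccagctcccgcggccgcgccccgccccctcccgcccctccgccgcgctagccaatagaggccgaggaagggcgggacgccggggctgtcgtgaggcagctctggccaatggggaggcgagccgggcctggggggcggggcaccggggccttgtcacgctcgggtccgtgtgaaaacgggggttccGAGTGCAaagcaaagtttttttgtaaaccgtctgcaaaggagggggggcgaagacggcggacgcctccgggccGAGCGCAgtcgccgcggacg
Mt3 promoter: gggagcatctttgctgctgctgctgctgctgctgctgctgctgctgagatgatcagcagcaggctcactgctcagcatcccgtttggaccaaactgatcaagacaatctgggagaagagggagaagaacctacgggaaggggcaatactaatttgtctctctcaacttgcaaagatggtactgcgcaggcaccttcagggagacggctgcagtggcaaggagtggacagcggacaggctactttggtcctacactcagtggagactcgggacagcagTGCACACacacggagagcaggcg

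SOX9 coverage of these promoters (within 1 kb of the start) had a mean in uninjured cords of 14.9 at Slc30a1 with 2 matches, 12.1 at Mt1 with 3, 7.07 at Mt2 with 4 and 6.21 at Mt3 with 1. At 1 d.p.i. the means were 12.3 at Slc30a1, 16.8 at Mt1, 13.1 at Mt2 and 5.66 at Mt3. No relation to the number of matches was tested.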

How the data were processed

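SOX9 CUT&Tag of uninjured and injured mouse spinal cord was read from 8 libraries, 4 of SOX9 and 4 controls without it. Per the paper's methods and the submitters' processing notes, the authors split the reads by index with deML, aligned them to mm10 with Bowtie2 2.5.4, removed duplicates with Picard 3.4.0 and called peaks with SEACR 1.3. What they deposited is signal, the fragment coverage of every library in whole numbers not scaled for depth, and the step that wrote it is not stated. Its stretches never overlap within a library, and 0 of 21 chromosomes run past the ends of GRCm38.p6.

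Relative coverage is the mean coverage of a window over the mean autosomal coverage of the library, and fragments are rises of the coverage. Genes are from the mouse GENCODE annotation of GRCm38, with the outermost start taken as the gene start. All promoters, loci and 1-kb tiles past a filter (a mean over the SOX9 libraries of at least 1, 0.1 and 3) entered a fit of log2(relative coverage + 0.5) by limma 3.58.1 (R 4.3.3) with a mean-variance trend. Only the 4 SOX9 libraries entered the fit, since the controls are much shallower, and p-values were adjusted by Benjamini-Hochberg over all windows tested. On simulated counts of 15944 promoters with a spread of 22% between replicates, the fit called 38 of 100 changes of 4 times and 3 of 100 of 2 times (61 and 18 with a spread of 4.5%). None was in the wrong direction, and 0 unchanged promoters were called. The simulation gave replicates the same expected level at each promoter, without a shift of a whole library. In the data the median promoter coverage was 4.20 in M and 7.46 in F without injury. The simulated counts therefore do not give the recovery or the false calls of the fit on these libraries. Other values were computed in Python 3.11.15 with numpy 2.4.6, pandas 2.3.3 and scipy 1.17.1.

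The members and lists were chosen with earlier results of these data known. Genes and tiles were named by rule: all 10 members, the tile of the Slc39a14 start, the tiles on IREN1, the 3 highest tiles of the locus and at most 3 with the largest difference in each direction without overlap, the highest tile of each other locus, the 2 highest promoters and the largest differences of a list of 19 zinc genes, coding genes starting within 100 kb of the Slc39a14 start, and the 3 coding genes nearest in locus coverage. Alternatives covered scaling, pseudocounts, filters, the controls in the fit, sex as a block, the trend, window sizes and each SOX9 library left out. The planned sum over the oligodendrocyte lineage markers is not reported here, and the markers named were taken singly.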

Additional observations from a re-analysis of the deposited data

Results flagged for a closer look

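At 5 of 10 promoters and 3 of 10 loci the M and F libraries moved in opposite directions between uninjured cords and 1 d.p.i., each on 1 library per sex and condition. The log2 change in F minus that in M was -1.48 at the Slc39a14 promoter (0.98 in M and -0.50 in F), -2.16 at the Slc39a6 promoter, -1.70 at the Slc30a1 promoter, -0.70 at the Slc39a8 promoter and 0.57 at the Slc39a1 promoter. At the loci it was 0.30 for Slc39a8, -0.68 for Slc39a10 and -0.36 for Slc39a6. These differences between the sexes were not tested. Opposite directions were also found at 65.9% of all promoters and 65.9% of all loci past the filters, and the median log2 change over all promoters was 0.43 in M and -0.57 in F. At the Slc39a14 locus both sexes moved the same way, with log2 changes of 0.83 in M and 0.69 in F.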

How the results depend on the processing

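For 35 results 208 comparisons with another setting were made, and most of the results are ratios or counts without a test of their own, for which no reversal could be called. The IREN1 ratio of 3.64 ran from 3.41 to 5.08 over scaling, fragments in place of coverage and a wider interval, and from 2.76 to 5.35 with each SOX9 library left out. The Slc39a14 promoter ratio of 1.17 ran from 1.1 to 1.4, and from 0.901 to 1.67 with each library left out. The Slc39a14 locus ratio of 1.86 was 2.01 from fragments, 2.34 over the gene body, 1.74 with 50 kb on each side and 1.45 without the 8 tiles from IREN1 to the highest tile, a setting chosen after seeing the data, and 1.80 to 1.92 with each library left out. Promoters past the adjusted p numbered 1, and 0 with trimmed-mean scaling, without the filter or with all 8 libraries in the fit, and 0 to 1 with each library left out. Loci numbered 18, all higher at 1 d.p.i., and 1 with trimmed-mean scaling, 0 with all 8 libraries, 3 with sex as a block, 0 without the trend and 0 over the gene body, and 2 to 247 with each library left out, of which 133 higher and 114 lower without the uninjured M library. Tiles numbered 70 (60 higher, 10 lower), and 24 with trimmed-mean scaling, 11 without the filter, 0 with all 8 libraries, 29 with sex as a block and 0 without the trend, and 7 to 618 with each library left out. The split turned to 25 higher and 45 lower without the M library at 1 d.p.i. and to 0 higher and 7 lower without the F library at 1 d.p.i. A lone library left in a group is assumed to vary like the other group. Members lying above at promoters numbered 2, and 0 with trimmed-mean scaling. Members lying below at promoters numbered 1, and 2 within 500 bp of the start and 0 from fragments. Members lying below at loci numbered 3 (Slc39a1, Slc30a1 and Slc30a10), 2 over the gene body (Slc39a1 and Mt3) and 1 with 50 kb on each side, which is Slc39a6 and none of the 3. Among 129 comparisons for single genes and tiles, 104 stayed on the same side of the threshold or within the spread of the libraries, which is wide for ratios of weakly covered promoters. The cause of these shifts was not tested. With 2 libraries a group and 1 to 15 fragments at IREN1, counting error limits each value there, and the controls are too shallow to give a background for single sites.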
